A study of Mus musculus with 6 samples.

Results

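EP3B probes are the 8497 probes of a two-colour mouse RNA microarray whose names start with ASMM10EP3B. They were chosen by that name alone and make up 8497 of the 60691 probes that are not controls. What the letters EP3B stand for, and which sequence, genome position or gene each probe stands for, are not given in the labels and files used here. The systematic name in the files repeats the probe name for every EP3B probe, so probes are named here by identifier and no sequence is printed. Each EP3B probe is printed on 1 spot of each array. The larger EP3A series, 48057 probes with names starting ASMM10EP3A, was measured on the same arrays and served for comparison at like signal.

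The arrays measured sperm RNA of male C57BL/6 mice, 3 control and 3 cadmium (Cd) samples. Over 10 weeks, starting at an age of 5 weeks, control males drank control water and Cd males drank water holding CdCl2 at 100 mg/L, and sperm were taken at an age of 15 weeks. The RNA of each sample was split into an immunoprecipitated (IP) fraction, labelled with the red dye Cy5, and a supernatant fraction, labelled with the green dye Cy3, and both were hybridised to 1 array. No source used here names the antibody or target behind the IP, or says whether a sample came from 1 mouse or several, and no dye swap is described. Dye and fraction therefore cannot be told apart within an array. All 3 control arrays were read in 1 scan and all 3 Cd arrays in another, so treatment and scan cannot be told apart wherever the groups are compared. Of 16 sperm and somatic cell markers looked for, 3 had a named probe. The probe of the sperm hyaluronidase gene Hyal3 was well above background in IP on 6 arrays, that of the centrosomal gene Cep41 in both channels on 6 arrays, and that of the testis gene Spats1 on 0 arrays. Defining markers such as Prm1 and the leukocyte gene Ptprc have no named probe, so the sperm label could not be checked further.

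Mature sperm make little new RNA, and much of what they carry was made earlier in spermatogenesis or taken up from the epididymis. Cadmium is a toxic metal that accumulates in the body and harms the testis in rodents. In an RNA immunoprecipitation, RNA held by the antibody or bead goes into the IP fraction and the rest stays in the supernatant, so the ratio of the fractions describes how an RNA was divided between them. The summed signal of both fractions is called the RNA level here. In bulk samples, fewer RNA-bearing cells and less RNA per cell cannot be told apart.

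Most EP3B probes gave no signal above background on any array. "Well above background" is the scanner software's own call for a spot in 1 channel. In neither channel of any array were 4440 EP3B probes (52.3%) well above background, against 37.4% of EP3A probes. Another 651 EP3B probes (7.7%) were well above background on 1 or 2 arrays only. At least 1 channel was well above background on at least 3 arrays for 3406 EP3B probes (40.1%), against 54.2% of EP3A probes, and on all 6 arrays for 2372 (27.9%), against 39.1%. Both channels passed on at least 3 arrays for 2598 EP3B probes (30.6%) and on all 6 arrays for 1654 (19.5%). The EP3A shares were 42.8% and 27.2%. Fewer probes were seen in 1 fraction alone than in both. On at least 3 arrays, 333 EP3B probes (3.9% of the whole series) were well above background in IP only and 311 (3.7%) in supernatant only. The EP3A shares were 5.0% and 4.1%. The authors' deposited table of 30284 probes holds 3305 EP3B probes, 38.9% of the series, against 53.4% of EP3A probes.

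Detection varied between arrays and was lower for EP3B than for EP3A on each of the 6 arrays. In the IP channel 21.7%, 32.1% and 34.8% of EP3B probes were well above background on control arrays 1 to 3, and 39.0%, 38.7% and 33.4% on Cd arrays 1 to 3. Control array 1 was the lowest, and Cd array 3 lay between control arrays 2 and 3. For the supernatant the shares were 26.8%, 30.8% and 34.0% on control arrays 1 to 3 and 39.2%, 35.4% and 36.2% on Cd arrays 1 to 3. Here each Cd array lay above each control array. EP3A shares in IP ran from 30.4% to 52.8% with the lowest value again on control array 1. The unmatched EP3B minus EP3A difference was -12.7 ± 1.95 percentage points in IP and -12.3 ± 1.58 in supernatant (SD, n = 6 arrays). Both were below 0 on 6 of 6 arrays (exact 2-sided sign-flip permutation p = 0.0312 each, the smallest possible with 6 arrays, and 0.0391 after Benjamini-Hochberg adjustment over 5 such differences). The negative control spots, 308 per array, were well above background on 0 spots in either channel, apart from 1 spot in IP on Cd array 1.

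**Figure D1:**
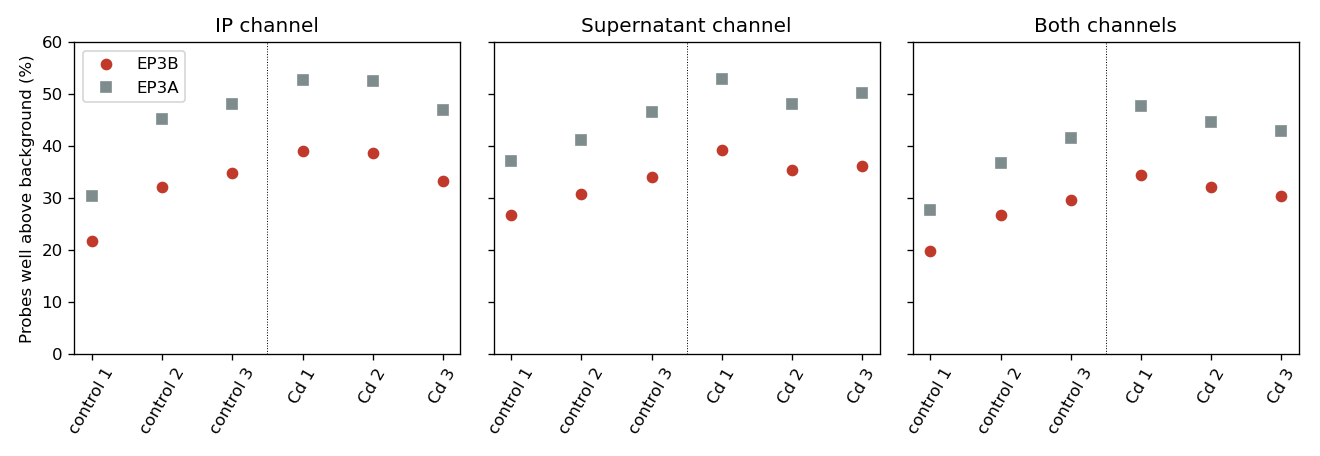
Percent of EP3B (circles) and EP3A (squares) probes well above background on each of the 6 arrays, in the IP channel, the supernatant channel and both channels; the dotted line divides control from Cd arrays. Each EP3B point lies below the EP3A point of the same array, and control array 1 is the lowest in each panel.

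The median EP3B probe was dim. Over all 8497 probes the median processed IP intensity was 42.7, 43.0 and 42.0 on control arrays 1 to 3 and 43.0, 47.5 and 32.4 on Cd arrays 1 to 3. The median supernatant intensity was 40.9, 43.2 and 48.0 on control arrays 1 to 3 and 39.4, 41.1 and 38.6 on Cd arrays 1 to 3. The EP3A medians were higher on each array, from 59.9 to 114.3 in IP and from 74.5 to 110.1 in supernatant. The upper end of EP3B was bright, with the 90th percentile of IP intensity between 948 on control array 1 and 1592 on Cd array 1. Among the 2550 EP3B probes that entered the ratio test, the median IP intensity was 438, 613 and 663 on control arrays 1 to 3 and 752, 696 and 643 on Cd arrays 1 to 3. Control array 1 stood apart as the dimmest, and the other 5 arrays were close to each other.

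At like summed signal EP3B and EP3A probes differed little in detection. Probes were put into bins of 1 log2 unit of their mean log2 summed signal over the 6 arrays, and the series were compared within bins holding at least 20 probes of each, weighted by the EP3B probes in the bin. The lowest bin, 5 to 6, held 3385 EP3B probes, of which 0.00985% ± 0.0153 were well above background in IP. In the bin from 7 to 8 the IP share was 32.5% ± 20.2 for EP3B and 32.3% ± 19.9 for EP3A, and from 10 to 11 it was 97.1% ± 5.03 and 97.0% ± 5.55 (SD over 6 arrays). Over the bins, the difference of EP3B minus EP3A was -0.235 ± 0.326 percentage points in IP (below 0 on 5 of 6 arrays), 0.271 ± 0.697 in supernatant (above 0 on 5 of 6) and 0.037 ± 0.348 in both channels (above 0 on 3 of 6). None of the 3 passed the exact sign-flip permutation test (p = 0.156, 0.438 and 0.781). With bins of 2 log2 the differences were -0.64, -0.09 and -0.13, so that the last 2 changed sign, and with bins of 0.5 log2 they were -0.09, 0.40 and 0.14. Under each of these bin widths they were far smaller than the unmatched differences of over 11 percentage points. The call depends on the spot's signal, so matching on summed signal fixed much of this closeness in advance. What remains within bins describes how signal was divided between channels and spots.

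EP3B ratios spread widely around the middle of the array. The log2 ratio of IP over supernatant was centred on the median of all tested probes of each array, so 0 is the middle of the array and not equal amounts in the fractions, and a series median near 0 is largely set by the centring. The median EP3B ratio was 0.04, -0.05 and -0.02 on control arrays 1 to 3 and 0.02, -0.01 and -0.03 on Cd arrays 1 to 3, all within 0.05 of the array's middle. The interquartile range over EP3B probes was 1.57, 1.74 and 1.51 on control arrays 1 to 3 and 1.41, 1.40 and 1.38 on Cd arrays 1 to 3. The share of EP3B probes with a ratio above 1 ran from 15.7% to 18.0% and that below -1 from 18.7% to 25.0%. The share below -1 was the larger on each of the 6 arrays. For EP3A the share above 1 ran from 19.1% to 24.0% and that below -1 reached at most 22.2%.

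At like summed signal the EP3B ratio lay slightly to the supernatant side of EP3A. The matched median was -0.004 ± 0.033 for EP3B and 0.056 ± 0.007 for EP3A (SD, n = 6 arrays), a difference of -0.060 ± 0.038. By array the difference was 0.006, -0.103 and -0.061 on control arrays 1 to 3 and -0.042, -0.084 and -0.075 on Cd arrays 1 to 3. It was below 0 on 5 of 6 arrays, with control array 1 at about 0, and did not pass the exact 2-sided sign-flip permutation test (p = 0.0625, adjusted 0.156 over 5 differences). It was -0.033 with normexp background correction and -0.071 with the detection filter on all 6 arrays. Both were below 0 on 6 of 6 arrays (exact permutation p = 0.0312, the smallest possible, not adjusted). The normexp setting also left out the scanner software's dye normalization. With a loess fit, bins of 0.5 or 2 log2, each array's own signal or outlier flags kept, the difference lay between -0.07 and -0.056. In each of these, p stayed at 0.0625 by the same exact permutation test. The spread, as the interquartile range, was 1.54 ± 0.107 for EP3B and 1.63 ± 0.131 for EP3A, a difference of -0.087 ± 0.052. By array it was -0.151, -0.108 and -0.064 on control arrays 1 to 3 and 0.002, -0.091 and -0.109 on Cd arrays 1 to 3. The narrower EP3B spread was seen on 5 of 6 arrays, with Cd array 1 at about 0 (exact permutation p = 0.0625, adjusted 0.156). It reached p = 0.0312 under 5 other settings of the bins, the measure of spread or the outlier flags, by the same exact permutation test. With normexp (-0.038) and with the filter on all 6 arrays (-0.093) the exact permutation p stayed at 0.0625. Without matching, the spread difference was -0.095 ± 0.041 log2 and below 0 on 6 of 6 arrays (exact permutation p = 0.0312, the smallest possible, adjusted 0.0391).

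The difference in ratio was not even over the range of signal. In the bin from 12 to 13 the median ratio was -0.04 ± 0.04 over 212 EP3B probes and 0.13 ± 0.03 over 1922 EP3A probes. In the bin from 13 to 14 it was -0.19 ± 0.08 over 157 EP3B probes and 0.12 ± 0.04 over 1332 EP3A probes (SD over 6 arrays). In these bins the series lay farther apart than the spread between arrays. From 11 to 12 the order was the other way, 0.16 ± 0.09 for EP3B and 0.09 ± 0.03 for EP3A. The EP3B median was below that of EP3A in 6 of 10 bins. The spread of the ratio grew with signal in both series, for EP3B from an interquartile range of 1.17 ± 0.24 in the bin from 8 to 9 to 2.31 ± 0.31 in the bin from 15 to 16. The filter on both channels kept 468 of 700 EP3B probes in the former bin and 73 of 73 in the latter. How far this filter narrowed the spread in dim bins was not tested. The EP3B spread was below that of EP3A in 8 of 10 bins, and farthest below from 12 to 13, at 1.57 ± 0.09 against 1.90 ± 0.13. The bins were not tested one by one. The spread between replicates was smaller in the bin from 15 to 16 than in the bin from 8 to 9. The median replicate SD of an EP3B probe's ratio went from 0.55 to 0.22 in control and from 0.39 to 0.22 in Cd. In the bin from 16 to 17, with 31 EP3B probes, it was 0.24 in control and 0.31 in Cd.

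**Figure D2:**
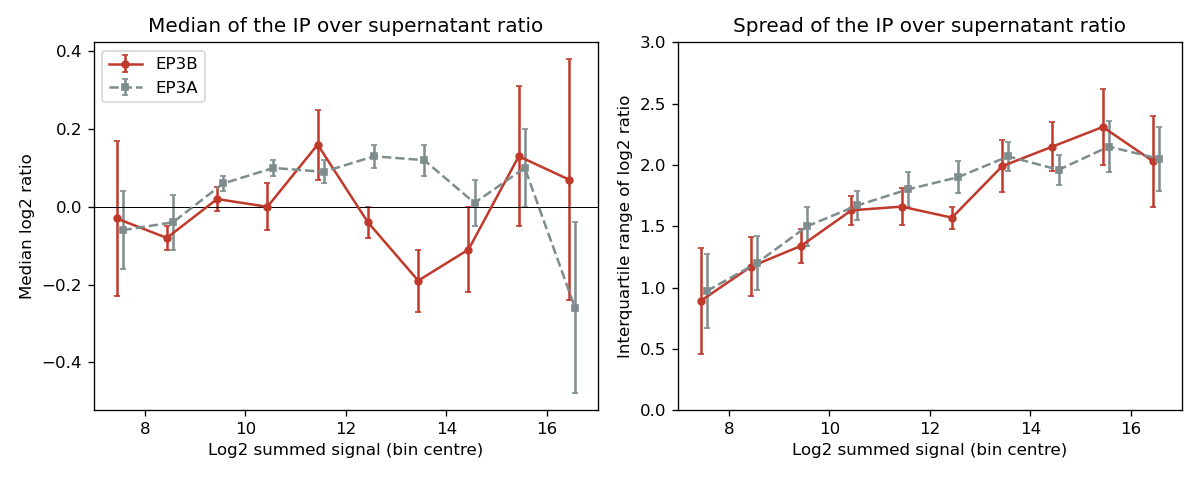
Median (left) and interquartile range (right) of the log2 IP over supernatant ratio of EP3B (circles, solid line) and EP3A (squares, dashed line) probes in bins of 1 log2 of mean summed signal; points are means over 6 arrays, bars are SDs over arrays, and the points are shifted slightly sideways. The EP3B median drops below EP3A in the bins from 12 to 14, and the interquartile range of both series grows with signal.

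Most EP3B probes lay on 1 side of the array's middle on all 6 arrays. Of the 2550 tested, 776 (30.4%) had a ratio above 0 on all 6 arrays, 807 (31.6%) had one below 0 on all 6, and 37.9% had both signs. The EP3A shares were 32.9%, 30.3% and 36.8%. A ratio above 1 on all 6 arrays, that is, red over green more than 2 times that of the array's middle, was found for 189 EP3B probes (7.41%) and 10.24% of EP3A probes. A ratio below -1 on all 6 was found for 283 EP3B probes (11.1%) and 9.18% of EP3A probes. EP3B thus had more probes far on the supernatant side than on the IP side, and EP3A the reverse. Probes of an array are not independent replicates, and these shares were not tested. The control mean ratio of EP3B probes ran from -4.09 to 4.43, with 5% of probes below -2.29 and 5% above 1.72. The median replicate SD of a probe was 0.36 in control and 0.28 in Cd, against an SD of 1.2 between probes. Across the 2550 EP3B probes, ratios of 2 arrays correlated with r from 0.79 to 0.91 within a group (6 pairs) and from 0.83 to 0.91 between groups (9 pairs), and the 2 ranges overlapped. For the RNA level r ran from 0.95 to 0.98 within groups over 3358 probes. These correlations are descriptions across probes that share arrays, dyes and the centring.

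The EP3B probes at either end of the control ratio were bright in 1 fraction and modest in the other. ASMM10EP3B105588697, the highest among probes detected in both channels on all 6 arrays, had an IP intensity of 7095, 5909 and 7399.6 in control and 7991, 5705 and 5993 in Cd. Its supernatant intensity was 506, 299 and 578 in control and 496, 539 and 379.5 in Cd. The groups overlapped in both channels, and the ratio was 3.96 ± 0.34 in control against 3.81 ± 0.34 in Cd (SD, n = 3 each). Next came ASMM10EP3B104595313 at 3.70 ± 0.43, ASMM10EP3B103273676 at 3.49 ± 0.30, ASMM10EP3B100019468 at 3.45 ± 0.13 and ASMM10EP3B100778940 at 3.45 ± 0.35 in control. At the other end ASMM10EP3B105683411 had an IP intensity of 876, 1419 and 1726 in control and 2709, 2639 and 2691 in Cd. Its supernatant intensity was 12632, 21436 and 25752 in control and 31633, 29082 and 34524 in Cd. Both fractions were higher on each Cd array than on each control array, while the ratio stayed far on the supernatant side at -3.86 ± 0.08 in control against -3.56 ± 0.12 in Cd. ASMM10EP3B100027831 (-3.67 ± 0.26), ASMM10EP3B101511697 (-3.60 ± 0.39), ASMM10EP3B103466162 (-3.57 ± 0.54) and ASMM10EP3B106513070 (-3.54 ± 0.26) followed. These 10 probes were chosen for their control ratio, so the values describe them and test nothing.

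The brightest EP3B probes with a value on every array lay far above the EP3B medians in both channels. ASMM10EP3B101730219 had a mean log2 summed signal of 19.04. Its IP intensity was 230010.5, 284249 and 258929.7 in control and 447277, 461249.5 and 605054 in Cd, and each Cd array lay above each control array. Its supernatant intensity was 152501.5, 128857 and 156999.5 in control and 129657, 325327 and 217023 in Cd, where the groups overlapped. The ratio was 0.85 ± 0.27 in control against 1.26 ± 0.67 in Cd, with overlapping groups (limma adjusted p = 0.979). ASMM10EP3B102977500 (18.28), ASMM10EP3B104529199 (18.22), ASMM10EP3B104516129 (18.15) and ASMM10EP3B104232270 (17.83) were next in mean log2 summed signal. ASMM10EP3B104516129 and ASMM10EP3B104232270 lay on the supernatant side, at -1.97 ± 0.15 and -2.54 ± 0.82 in control, and ASMM10EP3B104529199 on the IP side, at 0.45 ± 0.12. The removal of outlier-flagged spots touched bright probes most. It dropped 12 of 29 EP3B probes (41.4%) with a mean log2 summed signal of 17 or more, 35 of 258 (13.6%) from 14 to 17 and 2 of 8210 below 14. For EP3A the share was also 41.4% at 17 or more. Saturated spots numbered 0 on every array.

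The EP3B probe numbers fall into a low and a high block, which differed in ratio. The low block held 3135 probes numbered 100000013 to 100095261 and the high block 5362 probes numbered 100107848 to 107750178. This division was made after the values were seen, so it carries no test, and no source used here says what the numbers mean. In the low block 27.6% ± 5.22 of probes were well above background in IP and 26.9% ± 3.23 in supernatant. In the high block the shares were 36.6% ± 7.03 and 37.8% ± 5.04 (SD, n = 6 arrays). The median ratio of the 769 tested low-block probes was 0.23, 0.01 and 0.13 on control arrays 1 to 3 and 0.16, 0.14 and 0.08 on Cd arrays 1 to 3. For the 1781 tested high-block probes it was -0.03, -0.07 and -0.08 on control arrays 1 to 3 and -0.07, -0.12 and -0.08 on Cd arrays 1 to 3. The low block was above 0 and the high block below 0 on each array. At like summed signal, EP3B minus EP3A was 0.078 ± 0.074 for the low block (above 0 on 5 of 6 arrays) and -0.151 ± 0.029 for the high block (above 0 on 0 of 6). EP3A probes numbered in the low range had a median ratio of 0.18 ± 0.16 over 1584 tested probes, against 0.09 ± 0.01 in the range of the high block and 0.01 ± 0.04 beyond the last EP3B number. On control array 2 the order was the other way, with -0.10 in the low range and 0.08 in both others.

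**Figure D3:**
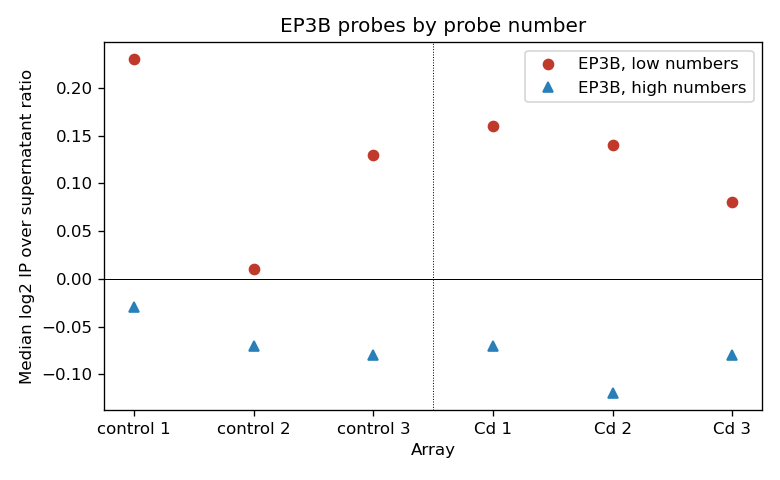
Median log2 IP over supernatant ratio of tested EP3B probes with low numbers (circles, 769 probes) and high numbers (triangles, 1781 probes) on each of the 6 arrays; the dotted line divides control from Cd arrays. The low block lies above 0 on each array, nearest to it on control array 2 at 0.01, and the high block lies below 0.

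EP3B probes with neighbouring numbers were only weakly alike. There were 1922 EP3B pairs with numbers 1 apart, and in the 113 pairs with both probes in the ratio test the mean ratios correlated with r = 0.26, with a median gap of 0.81 log2. For EP3A, 925 such pairs gave r = 0.38 and a median gap of 0.35. For the RNA level r was 0.0 over 195 EP3B pairs and 0.41 over 1243 EP3A pairs. EP3B pairs 2 to 200 numbers apart gave r = -0.04 for the ratio (256 pairs). A number occurred in both series 137 times, and 14 of these pairs could be compared for the ratio, with r = 0.36 and a median gap of 1.61 log2. Over 20 such pairs the level gave r = -0.18. Both probes of a pair share the arrays and their scaling, and the correlations are given as descriptions.

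No EP3B probe passed the test of control against Cd, in the ratio or in the RNA level. Over all 23788 probes of the ratio test, limma called 1 probe at an adjusted p of 0.05, 0.0042% of those tested, and over the 30518 probes of the level test it called 0%. Among the 2550 EP3B probes tested for the ratio, 0 were called, and the smallest adjusted p in limma was 0.544. With an unadjusted limma p below 0.05 there were 66 EP3B probes higher in Cd and 53 lower, 4.67% together, against 4.93% of all probes tested (2.48% higher and 2.44% lower). The 3 Cd values all lay above the 3 control values for 108 EP3B probes and below for 118, 8.86% together, against 9.72% of all probes (4.33% above and 5.39% below). Both shares were near the background. The median EP3B difference was 0.024, and that of all probes 0.022. For the median EP3B probe the 95% interval of the difference, not adjusted, reached 0.68 log2 to either side with 3 arrays a group. It is not the detection limit of the adjusted test, where far larger differences also fell short. ASMM10EP3B101107486, at a difference of -2.02, had a limma adjusted p of 0.544.

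For the RNA level 0 of 3358 EP3B probes were called, with a smallest adjusted p of 0.417 in limma. With an unadjusted limma p below 0.05 there were 227 EP3B probes higher in Cd and 154 lower, 11.3% together, against 10.3% of all probes tested (6.18% higher and 4.08% lower). The 3 Cd values lay above the control values for 380 EP3B probes and below for 267, 19.3% together, against 19.5% of all probes (10.6% above and 8.87% below). The detection filter lets in probes seen on all 3 Cd arrays and 0 control arrays. Of EP3B probes 80 were seen so, and 0 the other way round. The counts higher in Cd can therefore include probes that entered only through Cd. The median EP3B difference was 0.001, against -0.001 over all probes. The split between higher and lower differed between settings. Among EP3B probes with an unadjusted limma p below 0.05, the share higher in Cd was 59.6% as reported, 69.9% with scaling to the median, 54.3% with quantile normalization and 74.8% with normexp background correction. Over all probes the shares were near these, at 60.2%, 70.4%, 52.4% and 77.1%. The authors' deposited table holds the IP signal alone, another scaling and 3305 EP3B probes. There the share was 92.3% for EP3B and 93.8% over all probes. All probes were shifted there by a median of 0.287, and EP3B probes by 0.299. For the median EP3B probe the 95% interval reached 0.55 log2 to either side.

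EP3B detection in supernatant and in both channels was higher on each Cd array than on each control array. In the supernatant channel 30.5% ± 3.60 of probes were well above background in control and 36.9% ± 2.02 in Cd, and in both channels 25.4% ± 4.99 and 32.4% ± 2.01 (SD, n = 3 each). The groups did not overlap in either (exact 2-sided permutation p = 0.1, the smallest possible with 3 arrays against 3, adjusted 0.3 over 12 values). In IP the shares were 29.5% ± 6.94 and 37.0% ± 3.13, and the groups overlapped (exact permutation p = 0.2, adjusted 0.4). Without control array 1 the differences dropped from 7.51 to 3.58 percentage points in IP, from 6.38 to 4.51 in supernatant and from 6.99 to 4.24 in both channels. EP3A detection differed between the groups in the same direction, and at like summed signal the EP3B minus EP3A detection in supernatant was 0.643 ± 0.620 in control against -0.101 ± 0.644 in Cd (exact permutation p = 0.3).

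The EP3B ratio was spread more narrowly on each Cd array than on each control array. The interquartile range was 1.60 ± 0.12 in control against 1.40 ± 0.01 in Cd, a difference of -0.21 without overlap (exact permutation p = 0.1, the smallest possible, adjusted 0.3). With the filter on all 6 arrays, which keeps only probes above background in both channels on each array, the difference was -0.10 (exact permutation p = 0.5). With normexp background correction, which also left out the dye normalization, it was 0.062, in the other direction. EP3A had ranges of 1.70, 1.82 and 1.59 in control and 1.43, 1.52 and 1.51 in Cd. EP3B minus EP3A spread at like signal was -0.108 ± 0.043 in control against -0.066 ± 0.060 in Cd (exact permutation p = 0.5). The scans divided the arrays in the same way, and scan and treatment cannot be told apart here. After centring, which removes any shift common to all probes, the median EP3B ratio was -0.008 ± 0.044 in control against -0.010 ± 0.025 in Cd (exact permutation p = 1.0), and the median level was -0.24 ± 0.04 and -0.24 ± 0.03 (exact permutation p = 1.0). The level of EP3B minus EP3A at like summed signal was -0.018 ± 0.008 in control against 0.003 ± 0.010 in Cd, without overlap (exact permutation p = 0.1, adjusted 0.3). That last difference, 0.021 log2, was small beside the spread of single probes. The bins were made on the mean of the same summed signal over these arrays. Matching therefore kept the levels of the series close to each other in advance.

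The EP3B probes that came nearest to a call in the ratio were on the IP side in control and near the middle in Cd. None passed the adjusted threshold. ASMM10EP3B100016364 had an IP intensity of 4279, 2999.9 and 4296 in control and 784, 611 and 1119 in Cd. Its supernatant intensity was 1227, 1327 and 1339 in control and 777, 863 and 1130.0 in Cd. Each Cd array lay below each control array in both fractions, with the wider gap in IP. The ratio was 1.58 ± 0.35 in control against -0.16 ± 0.28 in Cd, a difference of -1.74 (SE 0.29, 95% interval -2.40 to -1.09, limma adjusted p = 0.544). Its level was also lower in Cd, by -1.81 (SE 0.31, limma adjusted p = 0.438). It was the one EP3B probe named for both tests.

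ASMM10EP3B101107486 had an IP intensity of 3487, 2432.5 and 3246 in control and 746, 981 and 1496 in Cd, and a supernatant intensity of 632, 916 and 685 in control and 631, 1374 and 1149.9 in Cd. IP was lower on each Cd array while supernatant overlapped. The ratio was 2.07 ± 0.58 in control against 0.05 ± 0.46 in Cd (difference -2.02, SE 0.37, limma adjusted p = 0.544). ASMM10EP3B101284672 had an IP intensity of 1229, 851 and 1199 in control and 213 to 432 in Cd, with supernatant between 312 and 442 on all 6 arrays. Its ratio went from 1.53 ± 0.37 in control to -0.14 ± 0.41 in Cd (difference -1.67, SE 0.32, limma adjusted p = 0.605). ASMM10EP3B103878602 had an IP intensity of 2294, 2035 and 2534.5 in control and 892, 1138 and 1345 in Cd, and a ratio of 1.67 ± 0.23 against 0.38 ± 0.19 (difference -1.29, SE 0.26, limma adjusted p = 0.646). In the last 3 probes the groups were separated in IP and overlapped in supernatant. With normexp the 4 differences kept their sign at -1.05, -1.0, -0.63 and -0.67.

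The probes nearest to a call in the other direction were dimmer. ASMM10EP3B100480417 had an IP intensity of 62.8, 102 and 146 in control and 184, 193 and 236 in Cd, with supernatant between 376 and 739 on all 6 arrays. Each Cd array lay above each control array in IP, and IP was well above background on 1 of 3 control arrays. The ratio was -2.69 ± 0.44 in control against -1.33 ± 0.31 in Cd (difference 1.36, SE 0.31, limma adjusted p = 0.769). ASMM10EP3B100004483 (difference 1.53, SE 0.36) and ASMM10EP3B100028158 (1.68, SE 0.43) had limma adjusted p of 0.792 and 0.886, and their IP spots were well above background on 2 and 1 of 3 control arrays. In both probes the groups overlapped in IP. The supernatant of ASMM10EP3B100004483 was 105.9, 242.4 and 240.5 in control and 193.8, 49.0 and 72.3 in Cd, well above background on 1 of 3 Cd arrays. On Cd array 3, ASMM10EP3B100028158 had an IP intensity of 62.7 and a supernatant intensity of 25.9. With normexp the differences of these 3 probes were 0.23, 0.13 and 0.05. ASMM10EP3B103235441 was well above background in IP on 3 Cd arrays and 0 control arrays, so it entered the test only through the group where it was higher. Its IP intensity was 44.1, 128 and 124 in control and 300.4, 226 and 186 in Cd, and no difference is given against control signal that was not well above background.

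Among EP3B probes with a higher level in Cd, ASMM10EP3B101894673 had the smallest p. Its IP intensity was 2857, 5972 and 5813 in control and 24496.5, 19028 and 15641 in Cd, and its supernatant intensity 2391, 4887 and 4608 in control and 16617, 13613 and 11822 in Cd. Both fractions were higher on each Cd array, and the ratio was 0.32 ± 0.02 against 0.49 ± 0.09. The level was 3.26 ± 0.24 in control against 5.01 ± 0.22 in Cd, a difference of 1.75 (SE 0.21, 95% interval 1.25 to 2.24, limma adjusted p = 0.417). It lay between 1.61 and 1.84 with any 1 array left out and was 1.96 with normexp. ASMM10EP3B101104864 had an IP intensity of 1025, 1292 and 1329 in control and 4125, 3264 and 2407 in Cd (level difference 1.39, SE 0.21, limma adjusted p = 0.417). ASMM10EP3B101475276 lay on the supernatant side, with a supernatant intensity of 7283, 10969 and 10399 in control and 40659, 23286 and 32993 in Cd (level difference 1.41, SE 0.25, limma adjusted p = 0.438). ASMM10EP3B102065243 was dim, with IP between 34.6 and 154 on all 6 arrays. It was well above background on 0 control arrays in either channel, and on 1 Cd array in IP and 2 in supernatant. It entered the test only through Cd, and its difference under the main processing is not given.

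Among EP3B probes with a lower level in Cd, ASMM10EP3B103907697 had the smallest p and lay on the IP side. Its IP intensity was 3845, 7680.0 and 7179 in control and 2404, 2793 and 1836 in Cd, without overlap, and its supernatant intensity 649, 1885 and 1624 in control and 767, 1227 and 612 in Cd, with overlap. The level was 3.05 ± 0.26 in control against 1.61 ± 0.29 in Cd (difference -1.44, SE 0.23, limma adjusted p = 0.417). ASMM10EP3B102303704 lay on the supernatant side, with a supernatant intensity of 1612, 2993.5 and 4333 in control and 1394, 724 and 912 in Cd (level difference -1.69, SE 0.29, limma adjusted p = 0.438). ASMM10EP3B100271981 had supernatant signal only, at 246, 323.5 and 363.5 in control and 155, 191 and 155 in Cd, with IP well above background on 0 arrays (level difference -1.01, SE 0.18, limma adjusted p = 0.438). With normexp the differences of these 3 probes were -0.80, -0.86 and -0.24.

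**Figure D4:**
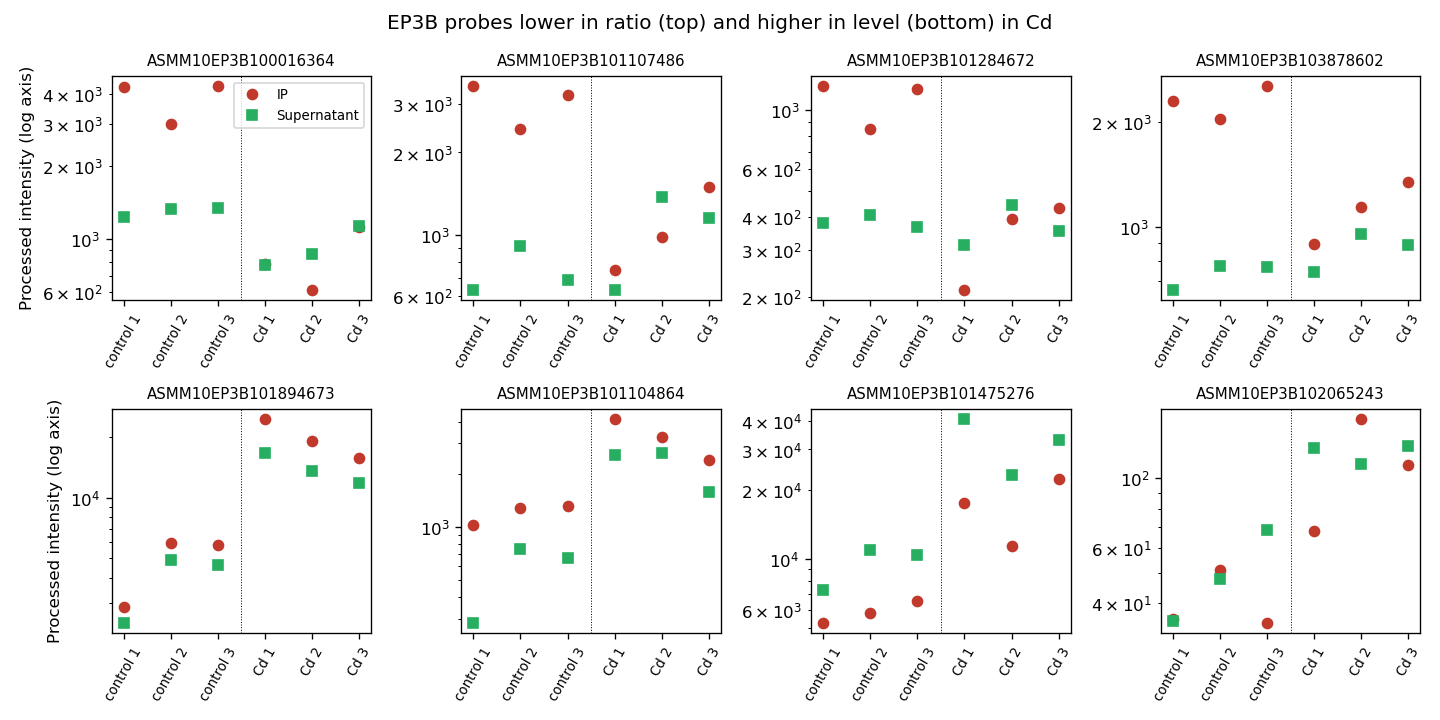
Processed IP (circles) and supernatant (squares) intensity, on log axes, of the 4 EP3B probes lower in ratio in Cd (top row) and the 4 higher in level in Cd (bottom row) with the smallest unadjusted p, on each of the 6 arrays; the dotted line divides control from Cd arrays, and each panel has its own scale. In the top row IP is lower on each Cd array, for ASMM10EP3B100016364 between 611 and 1119 against 2999.9 to 4296 in control. In the bottom row both channels are higher on each Cd array. The probe of the last panel, ASMM10EP3B102065243, was well above background on 0 control arrays and entered the test only through Cd. None passed the adjusted threshold.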

How the data were processed

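IP (red) and supernatant (green) RNA of 3 control and 3 Cd samples were measured on 6 arrays. Per the file headers, the deposited spot intensity tables were written by Agilent Feature Extraction, version 11.0.1.1, which subtracted background and normalized the dyes with linear and lowess terms. The deposited log10 ratio was used only to check these signals. A further deposited table of the authors is on a log2 scale and equals the log2 IP signal minus 1 constant per array, with column medians of -2.87, -2.00, -2.16, -2.11, -1.81 and -2.36. What the constant is, is unknown, and the table was an alternative only. No source used here names the antibody.

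The ratio was log2 red over green, centred on each array's median. The level was log2 of red plus green minus the array's 75th percentile. Spots with an outlier flag were removed, and probes with a missing value were dropped. To enter the ratio test a probe had both channels well above background on 3 or more arrays, and to enter the level test, either channel. limma 3.58.1 (R 4.3.3) was fitted over all probes, with Benjamini-Hochberg adjustment, 2-sided at 0.05, and checked on simulated data. Single values per array were compared with exact permutation tests, over 3 against 3 arrays or by sign-flip over 6 arrays. The labels call the samples biological replicates and say no more of their origin, so p-values measure the spread between these samples. Figures were drawn with matplotlib 3.10.9 (Python 3.11.15).

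Probes were named by a rule: up to 4 per direction and test with the smallest unadjusted p among EP3B probes whose groups did not overlap, since none passed, the 5 highest and 5 lowest control ratios among probes detected in both channels on all 6 arrays, and the 5 brightest. The members, markers and this rule were chosen with earlier results of these data known. Alternatives changed the background correction (normexp on median signals, offset 50), filter, scaling, centring, channels, bins, variance trend, replicate block and arrays. The normexp setting started from unprocessed median signals and so also left out the dye normalization. Its differences from the main values mix these changes. Arrays of the same number, as deviations from their group means, gave correlations of -0.05, -0.09 and -0.10 over EP3B ratios and of -0.36, 0.31 and -0.03 over EP3B levels. Only number 2 was positive, and in level alone, so replicate numbers were not taken as pairs.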

Additional observations from a re-analysis of the deposited data

Results flagged for a closer look

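Among the 5139 EP3B probes outside the level test, 519 were well above background on 1 or more Cd arrays and on 0 control arrays, and 66 on control arrays only. Of 22507 EP3A probes outside the level test the counts were 3215 and 345. Probes seen on all 3 Cd arrays and 0 control arrays meet the detection filter of the level test. They numbered 80 for EP3B, 0.942% of the series, and 0 the other way round. EP3A probes gave 525 (1.09%) and 0. Cd arrays had more probes above background in general, and each group had its own scan, so the scan cannot be told apart from the treatment. This difference was not tested.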

How the results depend on the processing

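No EP3B probe was called under any setting, for the ratio (smallest adjusted p from 0.115 to 1) or the level (0.161 to 0.744). With the replicate block, 0 EP3B probes were called in both, and at an unadjusted p under 0.05 the ratio gave 59 higher and 45 lower, the level 194 and 127. Together these were 4.08% of EP3B probes for the ratio, against 4.3% of all probes, and 9.56% for the level, against 7.84%. A slide or scan block could not be fitted, since each group had a scan of its own. Without replicates in turn the calls stayed at 0, and EP3B probes at an unadjusted p under 0.05 ranged from 69 (without Cd array 1) to 161 for the ratio, main 119, and from 255 to 446 for the level. At these ends the EP3B shares were 2.71% and 6.31% for the ratio, against 2.47% and 6.14% of all probes. For the level they were 7.59% and 13.3%, against 6.46% and 10.8%. With no filter on dim probes the ratio gave 387 EP3B probes, 4.58% against 5.41% of all probes. The level then gave 155 higher in Cd and 2149 lower, 27.3% of EP3B probes against 20.3% of all probes. In that setting all probes were shifted by a median of -0.254 log2 and EP3B probes by -0.448. With the filter on all 6 arrays the ratio gave 72, 4.48% of EP3B probes tested against 5.05% of all.

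At like signal, the ratio difference from EP3A (-0.060) was -0.033 with normexp and -0.071 with the filter on all 6 arrays, each with an exact permutation p of 0.0312. With a loess fit, other bins, each array's own signal or outlier flags kept, it lay between -0.07 and -0.056 (exact permutation p = 0.0625 in each). It ranged from -0.073 to -0.051 with 1 array left out, where p cannot go below 0.0625. The spread difference (-0.087) was -0.053 as an SD, -0.097 with bins of 0.5 log2, -0.072 with bins of 2 log2, -0.089 with each array's own signal and -0.078 with outlier flags kept (chosen after seeing the data), each with an exact permutation p of 0.0312, and from -0.105 to -0.074 with 1 array left out. The spread difference was -0.038 with normexp and -0.093 with the filter on all 6 arrays (exact permutation p = 0.0625 each). With 1 array left out, detection differences ranged from -0.31 to -0.15 (IP), 0.05 to 0.49 (supernatant) and -0.06 to 0.14 (both channels). They were -0.64 (exact permutation p = 0.0625), -0.09 and -0.13 with bins of 2 log2, -0.09, 0.40 and 0.14 with bins of 0.5 log2, and -0.16, 0.33 and 0.08 with each array's own signal. Without control array 1 and Cd array 3, also chosen after seeing the data, the ratio and spread differences were -0.072 and -0.065, and 0 probes were called.

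Between the groups, normexp turned the differences in median ratio (0.002), interquartile range (0.062) and median level (-0.016). The normexp setting also left out the dye normalization, and the cause of these turns was not tested. With the filter on all 6 arrays the interquartile range difference was -0.10 (exact permutation p = 0.5). With 1 array left out these ranged from -0.021 to 0.022, -0.257 to -0.142 and -0.02 to 0.017, and the detection differences from 3.58 to 10.15 points (IP), 4.51 to 8.1 (supernatant) and 4.24 to 9.1 (both). The level difference of ASMM10EP3B102065243, not above background in control, was -0.01 with normexp. Signal over background limits the 52.3% of EP3B probes never above background, and 3 arrays a group limit the rest.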
